A study of Ovis aries with 9 samples.

Results

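The ATP-binding cassette (ABC) genes of the sheep ovary were followed in the deposited counts of 9 ewes. The members are the 47 rows of the count table whose symbol is ABC, a subfamily letter from A to G and a number, out of 27174 rows in all. The 9 libraries came from 3 groups of 3 adult ewes, each ewe giving 1 library of whole ovary. Dorset ewes (D4, D5 and D6) are labelled wild type and are the low-fecundity breed. Han BB ewes (W1, W2 and W4) are Small Tail Han sheep of genotype FecBBFecBB, homozygous for the fecundity mutation in the BMP receptor gene BMPR1B. Han ++ ewes (W6, W7 and W8) are Small Tail Han sheep of genotype FecB+FecB+, without the mutation. According to the methods, ewes of every group received a progestagen sponge and pregnant mare serum gonadotropin to synchronize estrus, and were killed after the following spontaneous estrus. Han BB against Han ++ compares genotypes within 1 breed, Han ++ against Dorset compares breeds without the mutation, and in Han BB against Dorset breed and genotype cannot be told apart.

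ABC proteins bind and hydrolyse ATP in a conserved nucleotide-binding domain, and most of them use that energy to move a substrate across a membrane. Members of ABCA and ABCG move sterols and phospholipids, members of ABCB and ABCC move bile salts, organic anions, drugs and heme-related substrates, and members of ABCD carry fatty acids into peroxisomes. ABCE and ABCF have the ATP-binding domains without a membrane part and work on ribosomes. In the ovary the sterol transporters matter because steroid-producing cells take up, store and release cholesterol, and ABCA1 and ABCG1 hand surplus cholesterol to lipoprotein particles. No sequence is printed, because none of the files used here holds one.

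Of the 47 rows, 42 had at least 1 read, and 39 passed the filter on low counts and were tested. These were 9 of 9 ABCA rows, 7 of 12 ABCB, 11 of 11 ABCC, 4 of 6 ABCD, 1 of 1 ABCE, 3 of 3 ABCF and 4 of 5 ABCG. The 3 rows with reads that did not pass were ABCG4 (0 to 12 reads per library), ABCD3.1 (0 to 3) and ABCD4 (0 to 1). The reads of ABCD4 stood on a second row of that name, ABCD4.1, with 204 to 553 reads. The 5 rows without a read all carry the name ABCB1 (ABCB1, ABCB1.1, ABCB1.2, ABCB1.1.1 and ABCB1.2.1). ABCB1 encodes P-glycoprotein, the multidrug exporter of endothelium and other barriers. It is listed at 0 in all 9 libraries, and a count of 0 allows up to 3 reads, or 0.135 to 0.292 CPM by library, which covers counting error only. The 3 endothelial markers with a row, of 5 listed, summed to 339 to 553 CPM in the same libraries. How reads shared by the 5 rows were counted is not given in the sources used here.

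CPM are reads scaled to a library total of 1000000 after correction with TMM factors, the trimmed mean normalization of edgeR. The totals were 11716565 to 20748930 reads in Dorset, 14545296 to 20438713 for Han BB and 10803913 to 20992535 for Han ++, and the ABC rows took 0.0913% (D4) to 0.160% (W4) of them. Gene lengths were not used, so CPM are compared between ewes for 1 gene and not between genes. Because whole ovaries were sequenced, fewer cells of a type and less RNA per cell cannot be told apart. Granulosa markers (71.4 to 251 CPM summed per library, 4 of 6 listed genes with a row), luteal markers (269 to 968 CPM, 5 of 5) and oocyte markers (5.71 to 18.5 CPM, 5 of 5) were present in all libraries. Oviduct secretory markers (OVGP1, PAX8 and TFF3, 3 of 3) summed to 377 to 721 CPM in Dorset and 782 to 1849 CPM in Han, and ciliated epithelium markers (10 of 10) to 143 to 257 CPM in Dorset, against 227 to 456 in Han BB, with 323 to 478 for Han ++. OVGP1 made up most of the oviduct sum, at 371 to 718 CPM in Dorset and 761 to 1824 CPM in Han. PAX8 overlapped between the breeds, at 2.57 to 18.0 CPM in Dorset and 3.14 to 14.0 CPM in Han. TFF3 was at most 0.949 CPM in Dorset and at least 1.14 CPM in Han. None of these markers was at 0 in all libraries. The part of these other cell types in the breed differences given here was not tested.

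**Figure D1:**
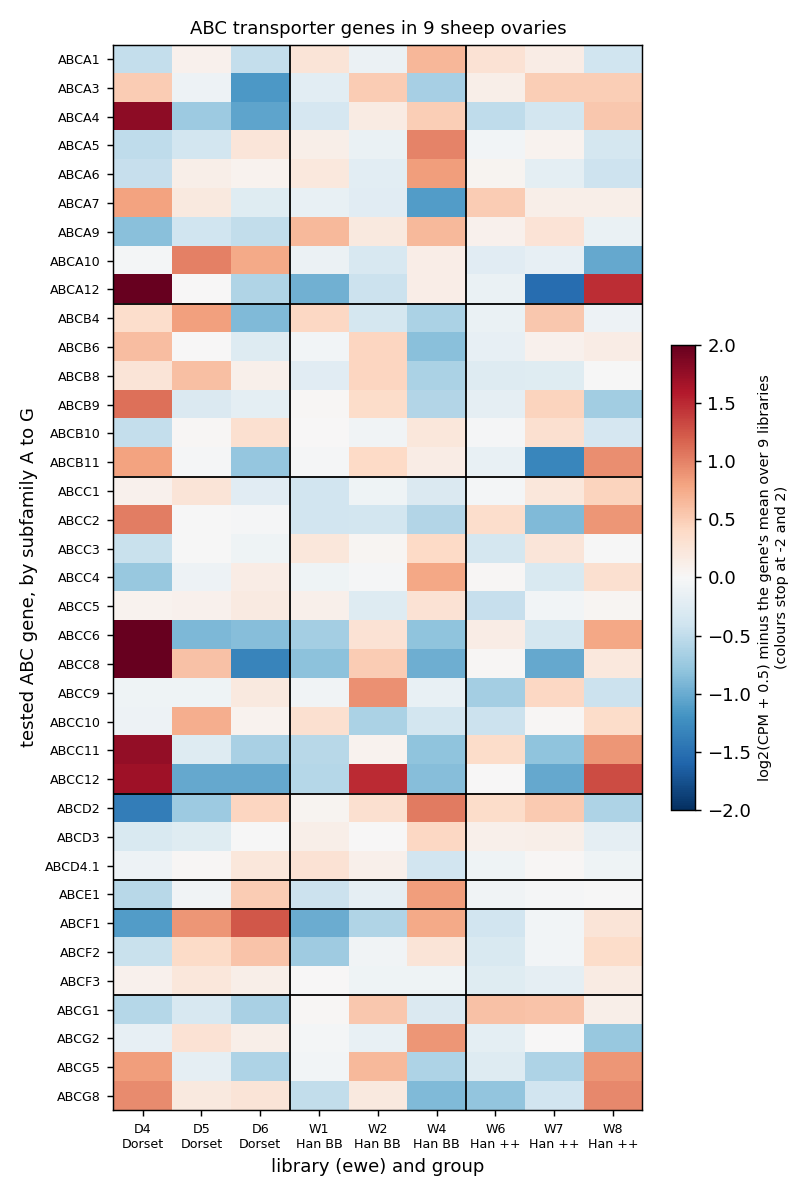
Level of 37 tested ABC genes (rows, by subfamily) in the 9 libraries (columns, by group), as log2(CPM + 0.5) minus the gene's mean over the libraries, with red above and blue below that mean. ABCA9 and ABCG1 are lower in the 3 Dorset columns than in the 6 Han columns, ABCA10 is highest in D5 and D6, and several ABCC genes stand out in D4 alone.

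ABCA1, which loads cholesterol and phospholipid onto apolipoprotein A-I, stood at 173, 256 and 174 CPM in the Dorset ewes D4, D5 and D6, at 287, 223 and 383 CPM in the Han BB ewes W1, W2 and W4, and at 296, 268 and 184 CPM in the Han ++ ewes W6, W7 and W8. All later values follow this order of ewes. The groups overlapped, with W4 the highest and D4 and D6 the lowest. The log2 fold change was 0.57 (standard error 0.32) for Han BB over Dorset and 0.31 (0.32) for Han ++ over Dorset, with adjusted p = 0.980 and 1.000 by the quasi-likelihood test of edgeR, adjusted after Benjamini and Hochberg over all tested genes. Macrophages are rich in both ABCA1 and ABCG1, and their summed markers (5 of 6 with a row, 0 of these at 0 in all libraries) reached 157 to 352 CPM in Dorset, against 259 to 389 in Han BB, with 203 to 331 for Han ++. Their part in the levels of both genes was not tested.

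ABCG1, which passes cholesterol to lipoprotein particles that already carry lipid, was at 26.1, 30.9 and 24.5 CPM in Dorset, 39.5, 56.7 and 31.8 in Han BB, and 58.4, 58.0 and 42.2 in Han ++. All 6 Han ewes were above all 3 Dorset ewes, with W4 closest to the Dorset values. Han BB averaged 42.7 ± 12.7 CPM and Han ++ 52.9 ± 9.27 CPM, beside 27.2 ± 3.31 CPM for Dorset (SD, n = 3). Han ++ exceeded Dorset by 0.96 on the log2 scale (standard error 0.29, unadjusted p = 0.00631, adjusted p = 0.684 in edgeR), and Han BB exceeded it by 0.65 (standard error 0.28, unadjusted p = 0.0429, adjusted p = 0.975 in edgeR). Neither difference passed the adjusted threshold. The Han BB difference had an unadjusted p under 0.05 in 9 of 17 alternatives, and missed it without a filter, in the fit of these 2 groups and with W1, W2, W6, W7, D4 or D6 left out. Without W2 it was 0.40 with an unadjusted p of 0.215. Between the Han groups the log2 fold change of ABCG1 was -0.31 (standard error 0.28, adjusted p = 0.999 in edgeR), and the ewes overlapped. Both comparisons with Dorset use the same 3 Dorset libraries.

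ABCG1 and ABCA1 are both targets of the liver X receptors, the nuclear receptors that sense oxysterols. Reads on ABCG1 per read on ABCA1, a ratio that needs no scaling between libraries, were 0.150, 0.121 and 0.141 in Dorset, 0.137, 0.254 and 0.0831 in Han BB and 0.197, 0.217 and 0.229 in Han ++. The 3 Han ++ ratios lay above the 3 Dorset ratios, while the Han BB ewes spanned the whole range from the lowest (W4) to the highest (W2) of the 9. The ratio was chosen after the values had been seen and carries no test.

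ABCG5 and ABCG8 form the heterodimer that secretes plant sterols and cholesterol in liver and gut. They had few reads in the ovary, 0 to 10 per library for ABCG5 and 7 to 34 for ABCG8, and the groups overlapped for both. The genes overlap in the reference assembly, and the use of strand in counting is not given, so reads may be divided between them. ABCG4, a relative of ABCG1 known from brain, had 12 of its 18 reads in W2.

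**Figure D2:**
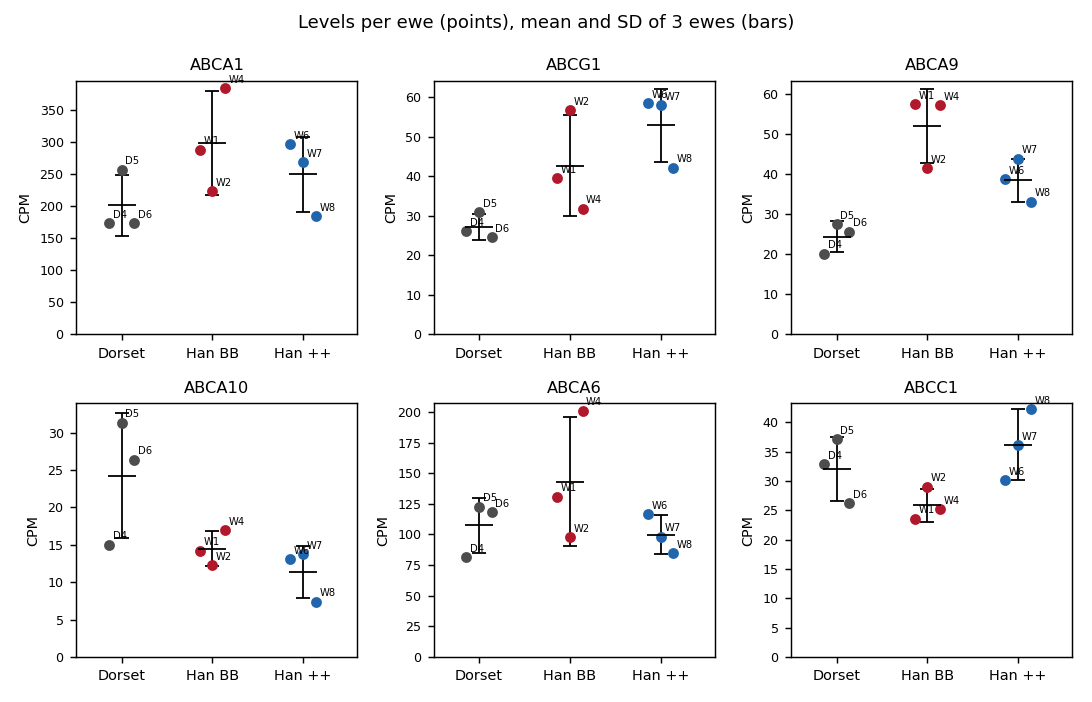
CPM of 6 ABC genes in each ewe (points labelled by ewe), with the mean (long bar) and SD (capped line) of the 3 ewes per group. ABCG1 and ABCA9 are higher in all 6 Han ewes than in all 3 Dorset ewes, ABCA10 is highest in D5 and D6, and ABCA1, ABCA6 and ABCC1 overlap between each Han group and Dorset.

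The ABCA5-related genes include ABCA9, the member with the lowest unadjusted p in Han BB against Dorset. ABCA5, ABCA6, ABCA8, ABCA9 and ABCA10 are neighbouring genes of similar sequence in mammals, with suspected roles in lipid transport that are less well known than those of ABCA1. In the reference assembly ARS-UI_Ramb_v3.0, which is not the assembly of the counts, ABCA5 and ABCA10 are next to each other, and ABCA6 and ABCA9 were not matched by symbol. ABCA8 was not analysed here. Since only uniquely mapped reads were kept, reads from stretches shared by these genes may be missing or misplaced, and their counts are uncertain to that degree.

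ABCA9 was at 20.1, 27.5 and 25.6 CPM in Dorset, 57.4, 41.5 and 57.2 in Han BB, and 38.6, 43.8 and 33.1 in Han ++. No Han ewe was as low as the highest Dorset ewe, D5. Han BB averaged 52.0 ± 9.13 CPM and Han ++ 38.5 ± 5.36 CPM, beside 24.4 ± 3.80 CPM for Dorset (SD, n = 3). The log2 fold change of Han BB over Dorset was 1.09 (standard error 0.26, unadjusted p = 0.00151, adjusted p = 0.749 in edgeR). That of Han ++ over Dorset was 0.66 (standard error 0.26, unadjusted p = 0.0273, adjusted p = 0.891 in edgeR). The Han BB difference had an unadjusted p under 0.05 in all 17 alternative analyses, with a log2 fold change of 0.97 to 1.24, and its lowest adjusted p was 0.0575, in DESeq2. The Han ++ difference had one in 11 of the 17, and missed it without a filter and with W1, W6, W7, D4 or D6 left out, the unadjusted p being 0.125 without W7. Han BB exceeded Han ++ by 0.43 (standard error 0.26, adjusted p = 0.999 in edgeR), with overlapping ewes.

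ABCA10 was at 15.0, 31.4 and 26.4 CPM in Dorset, 14.2, 12.3 and 16.9 in Han BB, and 13.1, 13.7 and 7.37 in Han ++. D5 and D6 were above all Han ewes, while D4 lay among the Han BB values and above the 3 Han ++ values. Han ++ over Dorset had a log2 fold change of -1.09 (standard error 0.35, unadjusted p = 0.0108, adjusted p = 0.760 in edgeR). Han BB over Dorset was -0.75 (standard error 0.35, unadjusted p = 0.0573, adjusted p = 0.975 in edgeR). Without D5 the unadjusted p of Han ++ over Dorset was 0.0526, and without W8 it was 0.0598.

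Within each library, ABCA9 had 1.34, 0.875 and 0.968 reads per read of ABCA10 in Dorset, 4.04, 3.38 and 3.38 in Han BB and 2.96, 3.19 and 4.49 in Han ++. The lowest Han ratio (W6) was above the highest Dorset ratio (D4), and the Han groups overlapped. On the log2 scale the ratio was 0.06 ± 0.32 in Dorset, 1.84 ± 0.15 in Han BB and 1.80 ± 0.32 in Han ++ (SD, n = 3). The summed level of both genes overlapped between the breeds, at 35.1, 58.8 and 52.0 CPM in Dorset, 71.6, 53.7 and 74.1 in Han BB, and 51.7, 57.5 and 40.4 in Han ++. The pair was chosen after the values had been seen and carries no test. It had the widest gap between breeds among the 325 pairs of the 26 members with at least 50 reads in every library. Of these pairs, 37 had ratios that separated the Han ewes from the Dorset ewes. The log2 gap was 1.14, against 0.86 for the next pair, ABCG1 to ABCB8.

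**Figure D3:**
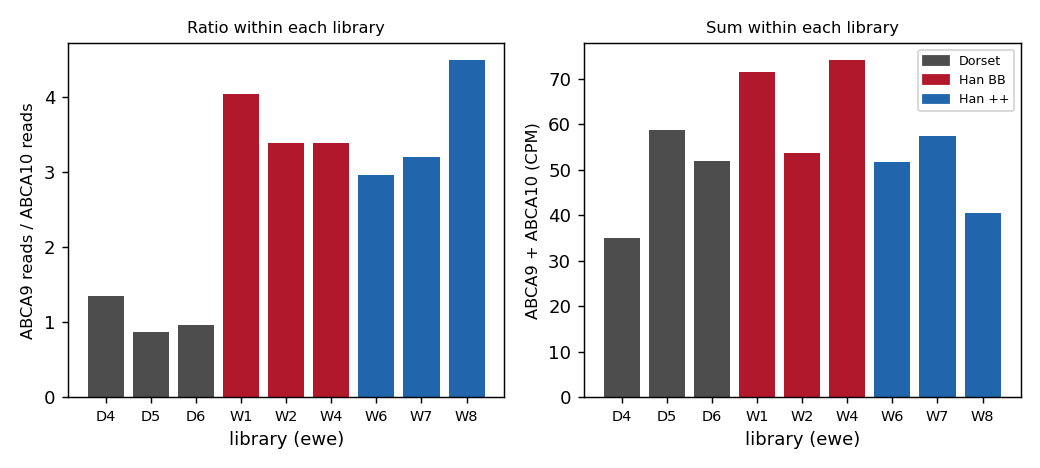
Reads on ABCA9 divided by reads on ABCA10 (left) and their summed CPM (right), 1 bar per ewe, coloured by group. The ratio is at most 1.34 in the Dorset ewes and at least 2.96 in the Han ewes, whereas the sums overlap.

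ABCA6, set beside these 2 genes, was at 81.6, 122 and 118 CPM in Dorset, 131, 97.6 and 201 in Han BB, and 117, 98.1 and 84.6 in Han ++. W4 was the highest ewe and D4 the lowest, and the groups overlapped. The log2 fold change was 0.41 for Han BB over Dorset and -0.11 for Han ++ over Dorset (edgeR, adjusted p = 0.996 and 1.000). Per read of ABCA6, ABCA9 had 0.217 to 0.247 reads in Dorset and 0.285 to 0.446 in Han, and ABCA10 had 0.184 to 0.256 in Dorset and 0.0842 to 0.1397 in Han. Both ratios separated the breeds, in opposite directions, and both pairs were among the 37 of 325 that did so.

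ABCA5, a lysosomal and endosomal member, was at 28.8, 32.0 and 49.0 CPM in Dorset, 44.9, 37.7 and 82.3 in Han BB, and 39.6, 43.4 and 32.2 in Han ++. W4 stood far above the other ewes, and D6 came next. Without W4 the log2 fold change of Han BB over Dorset went from 0.59 to 0.15, and without both W4 and D6 it was 0.43. It was 0.87 without D6 and 0.55 with a term for W4 and D6, with unadjusted p = 0.0451 and 0.0191 in edgeR.

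Of the other ABCA genes, ABCA3, the phospholipid transporter of lung lamellar bodies, ranged over 2.90 to 10.3 CPM. ABCA7, a phospholipid exporter also found in macrophages, ranged over 1.20 to 5.94 CPM, and its 3 Han BB values (2.85, 2.66 and 1.20 CPM) lay below its 3 Han ++ values (4.77, 3.53 and 3.50 CPM), at a log2 fold change of -0.81 (standard error 0.49, adjusted p = 0.999 in edgeR). ABCA4, the retinoid flippase of photoreceptors, had 22 to 122 reads per library and was highest in D4. ABCA12, the lipid transporter of the skin barrier, had 0 to 54 reads, and D4 and W8 were its highest ewes. None of these 4 genes had an unadjusted p under 0.05 in edgeR on all 9 libraries, and ABCA7 had one in Han BB against Dorset with a term for W4 and D6.

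Among the drug and organic anion transporters, ABCG2, the breast cancer resistance protein, was at 42.2, 57.8 and 51.4 CPM in Dorset, 45.9, 42.7 and 87.8 in Han BB, and 41.5, 47.7 and 27.6 in Han ++. W4 was the highest ewe and W8 the lowest. Han BB over Han ++ was 0.59 on the log2 scale (standard error 0.34, adjusted p = 0.999 in edgeR), the highest of the family in that comparison, and it was 0.17 without W4.

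ABCC1, or multidrug resistance protein 1, exports glutathione conjugates and leukotriene C4, and the study names it as a network hub. It was at 32.9, 37.1 and 26.2 CPM in Dorset, 23.5, 29.0 and 25.2 in Han BB, and 30.2, 36.1 and 42.3 in Han ++. Each Han BB ewe was below each Han ++ ewe, and the Dorset ewes overlapped both. Han BB over Han ++ was -0.48 (standard error 0.26, unadjusted p = 0.0872, adjusted p = 0.999 in edgeR), and limma voom gave the only unadjusted p under 0.05 among the alternatives for it, 0.0463.

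ABCC4 exports cyclic nucleotides and prostaglandins. It was at 10.4, 16.7 and 19.9 CPM in Dorset, 16.8, 17.6 and 31.0 in Han BB, and 18.2, 14.4 and 22.5 in Han ++. The groups overlapped, with D4 the lowest and W4 the highest ewe, and neither Han group had an adjusted p below 0.996 against Dorset in edgeR.

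ABCC5, another cyclic nucleotide exporter, ranged over 41.6 to 70.6 CPM, and ABCC3, an exporter of organic anions and bile salts, over 16.6 to 30.1 CPM. ABCC10 ranged over 6.02 to 16.3 CPM and ABCB4, the phosphatidylcholine floppase of bile formation, over 3.97 to 14.0 CPM. The 3 Han BB values of ABCC3 (26.9, 23.4 and 30.1 CPM) were above the 3 Dorset values (16.6, 22.7 and 21.4 CPM), with a log2 fold change of 0.40 (standard error 0.27, adjusted p = 0.996 in edgeR). The bile salt and conjugate exporters of the liver had few reads. ABCB11, the bile salt export pump, had 0 to 20 reads per library and ABCC2 had 15 to 50. The Han BB values of ABCC2 (1.23, 1.26 and 1.00 CPM) lay below its Dorset values (4.09, 1.76 and 1.73 CPM), at a log2 fold change of -1.10 (standard error 0.69, adjusted p = 0.994 in edgeR).

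ABCC6, ABCC8, ABCC11 and ABCC12 had few reads, and D4 was the highest ewe for each in CPM. ABCC8, the sulfonylurea receptor of the pancreatic potassium channel, had 95 reads in D4, 35 in D5 and 1 in D6, against 3 to 21 in each Han ewe. Over Dorset the change on the log2 scale was -2.46 in Han BB and -2.31 in Han ++ (standard errors 1.37 and 1.36), and without D4 it was -0.35 and -0.20. ABCC6, the transporter behind pseudoxanthoma elasticum, had 54 reads in D4 and at most 15 in any other ewe. ABCC11 had 25 reads in D4 and at most 13 elsewhere, and ABCC12, its neighbour, had 29 reads in D4, none in D5 or D6, and 34 in W2. These 4 genes had standard errors of 1.36 to 1.99 on the log2 scale for the comparisons with Dorset, and with all 9 libraries and the group alone none reached an unadjusted p under 0.05 in edgeR, in DESeq2 or in limma voom. In edgeR without D4, ABCC12 did in both comparisons with Dorset, with Han higher, since D5 and D6 had no read of it. ABCC8, lower in Han, did in both comparisons without D6 and, in Han BB, without W2.

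ABCC9 is the sulfonylurea receptor of vascular smooth muscle and pericytes, where it pairs with the potassium channel pore KCNJ8. Its levels were 64.2, 64.0 and 77.8 CPM in Dorset, 64.6, 129 and 61.3 in Han BB, and 42.5, 91.3 and 50.5 in Han ++. W2 was the highest ewe and W6 the lowest, and the groups overlapped. KCNJ8 was at 31.2, 16.4 and 23.4 CPM in Dorset, 26.7, 29.2 and 19.3 in Han BB, and 13.1, 24.6 and 11.7 in Han ++, also without a separation of groups. KCNJ11, the pore that pairs with ABCC8, had reads in W6 alone. The summed pericyte markers (RGS5, PDGFRB, NOTCH3 and KCNJ8) were 426 CPM in W2, within the 323 to 506 CPM of the 7 ewes other than W4 and D6.

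Of the members found in mitochondria, ABCB10, linked to heme synthesis, ranged over 16.3 to 29.0 CPM, ABCB8 over 4.88 to 12.1 CPM and ABCB6, a porphyrin-related transporter, over 19.9 to 55.2 CPM. All 3 ABCB8 values of Han ++ (6.44, 6.51 and 7.74 CPM) were below the Dorset values (9.44, 12.1 and 8.38 CPM), with a log2 fold change of -0.54 (standard error 0.35, adjusted p = 1.000 in edgeR). ABCB9, a lysosomal peptide transporter, had 15 to 81 reads per library. In edgeR on all 9 libraries with the group alone, no ABCB row had an unadjusted p under 0.05. ABCB8 had one in Han ++ against Dorset in edgeR with a term for W4 and D6, and in limma voom.

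The peroxisomal ABCD genes import very long chain and branched fatty acids. ABCD3, or PMP70, the main peroxisomal membrane transporter, was at 52.0, 54.4 and 64.6 CPM in Dorset, 69.7, 64.6 and 86.6 in Han BB, and 69.0, 69.9 and 56.8 in Han ++. All 3 Han BB ewes were above D6, the highest Dorset ewe, W2 only barely, and Han BB over Dorset was 0.37 (standard error 0.24, adjusted p = 0.996 in edgeR).

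ABCD2, a transporter of very long chain fatty acids, had 4 to 64 reads per library. Its log2 fold change over Dorset was 1.10 in Han BB and 0.69 in Han ++ (standard errors 0.74 and 0.73), and D4 held 4 of the reads against 20 in D5 and 47 in D6. ABCD4, counted on ABCD4.1 and involved in the lysosomal export of vitamin B12, varied little, over 16.2 to 26.2 CPM.

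ABCE1 recycles ribosomes by splitting their subunits after termination. It was at 54.8, 76.3 and 114 CPM in Dorset, 59.2, 70.7 and 143 in Han BB, and 76.8, 78.7 and 80.0 in Han ++. W4 and D6 were far above the other 7 ewes, which lay between 54.8 and 80.0 CPM, and the 3 Han ++ ewes were within 76.8 to 80.0 CPM. ABCF3, a cytosolic protein linked to antiviral defence, was the steadiest member, at 60.2 to 82.8 CPM. Its SD within groups was 0.13 on the log2 scale, and 99.0% of all tested genes had a larger one. All 3 Han BB ewes lay below the 3 Dorset ewes, at a log2 fold change of -0.20 (standard error 0.23, adjusted p = 0.997 in edgeR).

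ABCF1, which assists translation initiation with eIF2, varied among ewes of the same group. It was at 26.6, 107 and 139 CPM in Dorset, 29.0, 38.0 and 99.0 in Han BB, and 44.7, 55.6 and 69.6 in Han ++. D5, D6 and W4 were the highest ewes and D4 was the lowest, so Dorset held both ends. Its SD within groups was 0.92 on the log2 scale, which 9.36% of tested genes exceeded, and the median over the 39 members was 0.45, beside 0.50 over all tested genes. In edgeR ABCF1 had an unadjusted p of 0.242 in Han BB and 0.263 in Han ++ against Dorset. It was under 0.05 in both with D4 left out, and in Han BB also with W4 left out and in limma voom. ABCF2, a relative of ABCF1, ranged over 22.5 to 55.7 CPM with the same 2 ewes, D6 and D5, at the top.

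Across the family, 0 of 39 members passed the thresholds (adjusted p below 0.05 in edgeR, with more than 1.5-fold change either way) in any of the 3 comparisons. The members called by DESeq2 and by limma voom were 0 as well. At an unadjusted p under 0.05, DESeq2 found 3, 3 and 0 of 42 members in Han BB over Dorset, Han ++ over Dorset and Han BB over Han ++, and limma voom 5, 4 and 1 of 39. Over all genes these shares were 5.4%, 4.63% and 2.21% in DESeq2 and 11.5%, 9.78% and 7.26% in limma voom. Over all 16871 tested genes edgeR called 0 (0%) in Han BB against Dorset, 1 (0.00593%) in Han ++ against Dorset and 0 (0%) in Han BB against Han ++. At an unadjusted p under 0.05, 2 members were higher in Han BB than in Dorset (ABCA9 and ABCG1), where 2.1% of tested genes were, and 1 was lower, where 2.89% were. In Han ++ against Dorset 2 members were higher (ABCA9 and ABCG1, background 2.61%) and 1 was lower (ABCA10, background 2.66%). In Han BB against Han ++ there were 0 in either direction, beside 0.877% of tested genes higher and 1.09% lower in Han BB. For 39 genes the background shares amount to 0.821 higher and 1.13 lower in the first comparison and 1.02 higher and 1.04 lower in the second, so the counts of members were near the background. Groups without overlap were also found in many other genes. In Han BB against Dorset 4 members were higher in every ewe and 2 lower, beside 720 and 763 of the 16871 tested genes. In Han ++ against Dorset these were 2 and 3, beside 923 and 943 genes. In Han BB against Han ++ they were 0 and 2, beside 807 and 775.

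The median log2 fold change of the 39 members was -0.09 in Han BB over Dorset, -0.14 in Han ++ over Dorset and 0.05 in Han BB over Han ++. Over all tested genes the medians were -0.01, -0.06 and 0.04. In Han BB over Dorset 16 members were above 0 and 23 below. By subfamily the medians in this comparison were 0.07 for ABCA, -0.24 for ABCB, -0.31 for ABCC, 0.17 for ABCD, -0.36 for ABCF and 0.06 for ABCG. Without D4 the family median of Han BB over Dorset was 0.05, on the other side of 0. The lowest adjusted p of the family in edgeR was 0.749 in Han BB over Dorset, 0.684 in Han ++ over Dorset and 0.999 in Han BB over Han ++.

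**Figure D4:**
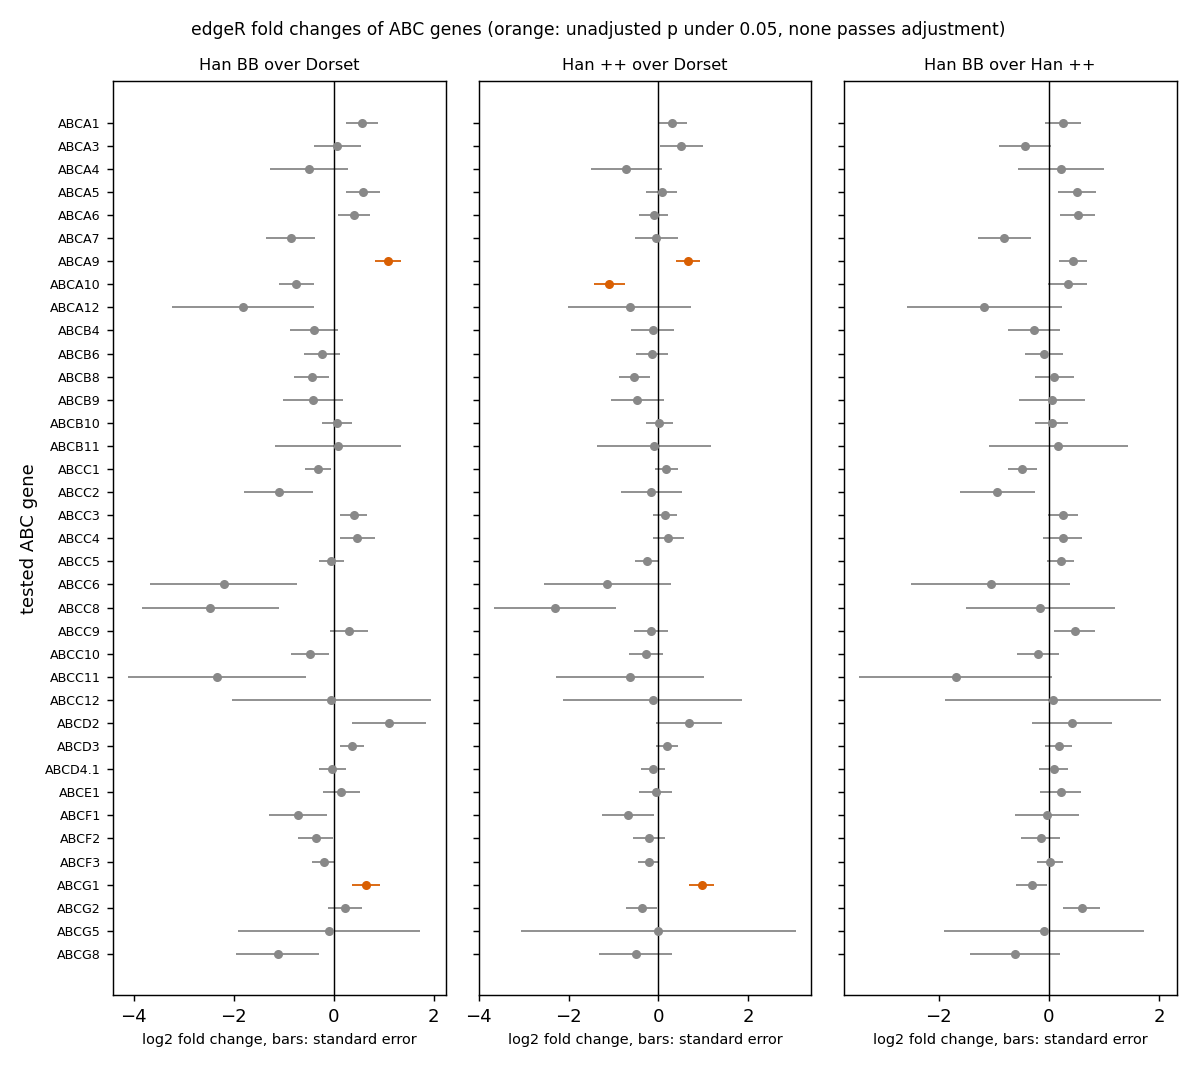
Log2 fold change (point) and standard error (bar) of 37 tested ABC genes in 3 comparisons, from edgeR's fit of all 9 libraries, with orange for an unadjusted p under 0.05. ABCA9 and ABCG1 lie above 0 in both comparisons with Dorset, ABCA10 is orange in Han ++ over Dorset, and ABCC11, ABCC12 and ABCG5 have the widest bars.

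Libraries W4 (Han BB) and D6 (Dorset) stood apart from the other 7 in many genes, which does not follow breed or genotype. Of all tested genes, 18.6% were higher in both W4 and D6 than in each of the other 7 ewes, and 17.2% were lower in both. Among the 39 ABC members 4 were higher (ABCA5, ABCC5 and ABCE1 among them) and 4 were lower (ABCA3, ABCA7, ABCB4 and ABCB6), fewer in each direction than the background shares, which amount to 7.25 and 6.71 genes. The summed pericyte markers were also lowest in these libraries, at 134 CPM in W4 and 191 CPM in D6. PDGFRB made up most of these sums, at 94.1 and 144 CPM. PDGFRB and NOTCH3 were each lowest in W4 and D6, but RGS5 and KCNJ8 were not. KCNJ8 was at 19.3 and 23.4 CPM there, above W6, W8 and D5 (13.1, 11.7 and 16.4 CPM). With both libraries left out, ABCA9 was higher in Han BB than in Dorset by 1.04 and in Han ++ by 0.69 on the log2 scale, ABCG1 by 0.74 and 0.89, and ABCA10 in Han ++ was -1.03, each with an unadjusted p under 0.05. ABCC8 also had an unadjusted p under 0.05 against Dorset then, in both Han groups.

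**Figure D5:**
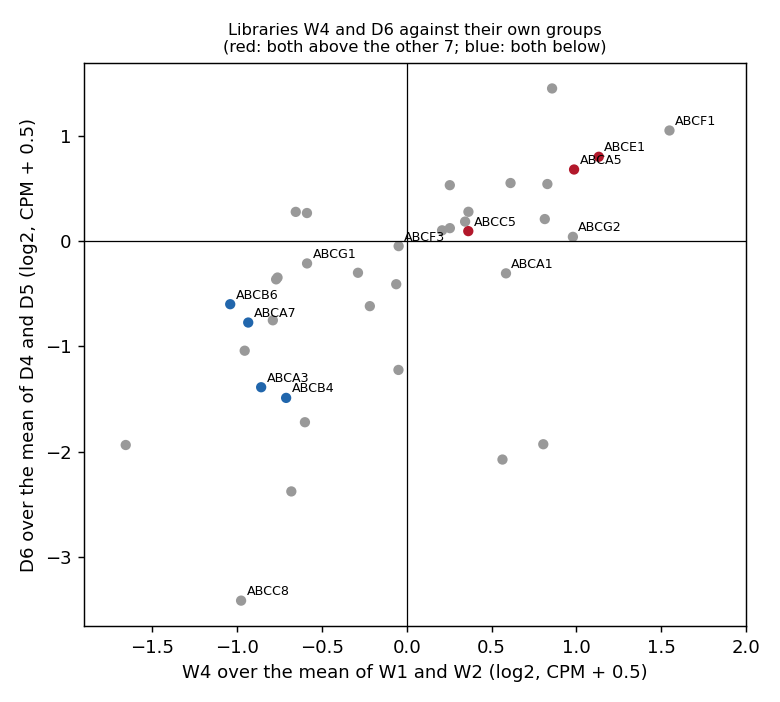
Level of 37 tested ABC genes in W4 over the mean of W1 and W2 (horizontal axis) and in D6 over the mean of D4 and D5 (vertical axis), as log2 of CPM + 0.5, with genes in red or blue where both libraries were above or below the other 7. ABCA5, ABCC5 and ABCE1 are red, ABCA3, ABCA7, ABCB4 and ABCB6 are blue, and ABCF1 lies far to the upper right although D5 was above W4.

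Genes that work beside the transporters were taken by list. Of 12 listed partners of sterol efflux 7 had a row and were tested, among them the liver X receptors NR1H2 and NR1H3 and the lipoprotein receptor SCARB1, and 0 had an unadjusted p under 0.05 in any comparison, with medians of -0.25 in Han BB and -0.22 in Han ++ over Dorset. SCARB1, which takes up cholesteryl esters from high-density lipoprotein, was at 119, 79.9 and 48.4 CPM in Dorset, 41.8, 107 and 45.2 in Han BB, and 34.8, 54.7 and 80.6 in Han ++. W2 and D4 were its highest ewes, and the groups overlapped.

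Of 10 listed xenobiotic and glutathione genes 9 were tested. AHR, the receptor for aryl hydrocarbons, was at 36.3, 43.9 and 41.5 CPM in Dorset, 56.8, 59.5 and 58.7 in Han BB, and 59.97, 67.0 and 63.7 in Han ++. All 6 Han ewes were above the 3 Dorset ewes, at a log2 fold change of 0.52 in Han BB (standard error 0.22, adjusted p = 0.975 in edgeR) and 0.65 in Han ++ (standard error 0.22, adjusted p = 0.791 in edgeR). NR1I2, the pregnane X receptor that induces ABCB1 in liver, was at 3.21 CPM in D4 and at most 1.20 CPM elsewhere. Its log2 fold change in Han BB over Dorset was -4.21 (standard error 1.71, unadjusted p = 0.0316, adjusted p = 0.975 in edgeR). D5 was at 0.541 CPM and D6 at 0.0558 CPM, and D6 lay within the Han BB values (0.0475, 0 and 0.134 CPM).

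Of 11 listed genes of peroxisomal fatty acid import and oxidation 10 were tested, and 0 had an unadjusted p under 0.05 in Han BB over Dorset. In Han ++ over Dorset AMACR, which readies branched fatty acids for oxidation, had a log2 fold change of -0.65 (standard error 0.25, unadjusted p = 0.0239, adjusted p = 0.884 in edgeR). Among 9 tested genes of 10 for mitochondrial iron-sulfur and heme synthesis, SLC25A37, the mitochondrial iron importer, was the only one with an unadjusted p under 0.05, at -0.83 in Han ++ over Dorset (adjusted p = 0.902 in edgeR). The 9 tested partners of ABCE1 and ABCF in termination and initiation, of 10 names listed, had 0.

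Some ABC proteins carry other symbols, and 3 of these were listed. TAP1 and TAP2 together form the peptide transporter of antigen presentation. TAP1 was at 52.2, 73.0 and 40.6 CPM in Dorset, 38.6, 35.3 and 30.6 in Han BB, and 44.7, 45.6 and 36.5 in Han ++. TAP2 was at 49.2, 66.3 and 52.5 CPM in Dorset, 38.6, 34.7 and 40.3 in Han BB, and 36.0, 35.7 and 38.2 in Han ++. For TAP2 all 6 Han ewes were below all 3 Dorset ewes, and for TAP1 all 3 Han BB ewes were. Their log2 fold changes in Han BB over Dorset were -0.67 (standard error 0.28) and -0.56 (standard error 0.23), and TAP2 in Han ++ was at -0.61 (standard error 0.23), with adjusted p = 0.975, 0.975 and 0.883 in edgeR. CFTR, the chloride channel of the family, ranged from 2.80 CPM in W2 to 9.70 CPM in W4.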

How the data were processed

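Whole ovaries of 9 ewes gave 1 RNA library each, with 3 ewes per group. The authors mapped paired-end reads to Oar_v3.1 with TopHat, left its settings unchanged, retained reads with a unique position, and deposited raw read counts by gene row. No source used here gives the counting program, its use of strand, or versions. The kit is a stranded one for total RNA in the methods and another from Illumina in the sample labels.

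R 4.3.3 was used with limma 3.58.1, DESeq2 1.42.0 and edgeR 4.0.16 to analyse the deposited counts, and matplotlib 3.10.9 in Python 3.11.15 to draw them. TMM factors and edgeR's filter on expression by group left 16871 of 27174 rows. The quasi-likelihood model had the group as its single factor and used the 9 libraries together for the 3 pairwise comparisons. Benjamini-Hochberg adjustment ran over all rows tested. Standard errors in edgeR were derived as the size of the log2 fold change divided by the square root of the F statistic. They are unreliable where hardly any change was seen. Calls needed an adjusted p below 0.05 together with more than 1.5-fold change either way, the thresholds of the study. The alternatives were the size factors of DESeq2, DESeq2 itself, limma voom with quality weights, no filter, a minimum of 1 CPM in 3 libraries, models of 2 groups, no fold threshold, each library left out, W4 and D6 left out, and a term for these 2. The common biological coefficient of variation was 0.472.

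Members, lists and alternatives were chosen with earlier results of these data known. Ratios between genes were added after the values were seen. Members were named for an unadjusted p under 0.05, for the 3 highest and 3 lowest log2 fold changes of each comparison, for the highest mean CPM of each subfamily, because the study names them (ABCC1 and ABCA9), or as sterol and drug transporters (ABCA1, ABCG1, ABCB1, ABCG2 and ABCC4). The remaining members were named after their values were seen. Of 41 distinct member symbols 37 were matched to the reference ARS-UI_Ramb_v3.0, used for names and neighbours only. ABCA2, ABCA13 and ABCB5 were not analysed here, and a few other genes are not reported here, though the tests and counts include them. The labels give no replicate numbers, so ewes are named by their titles and nothing pairs them. The p values weigh a difference between groups against the spread between ewes.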

Additional observations from a re-analysis of the deposited data

How the results depend on the processing

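The number of ABC members called was 0 in every comparison under all 18 alternatives, including each of the 9 libraries left out. Counts at an unadjusted p under 0.05 changed more. In Han BB against Dorset the count was 3, and it was 5 in limma voom, 1 in the fit of these 2 groups, 7 with a term for W4 and D6, and 1 to 5 with a library left out (1 without W1, 5 without D4 or D6). The share of all tested genes moved with it, from 4.99% to 11.5% in limma voom, 3.2% in the fit of these 2 groups, 10.7% with the term, 3.45% without W1, 7.31% without D4 and 9.39% without D6. In Han ++ against Dorset it was 3, and 6 with the term for W4 and D6, where the share of all genes went from 5.27% to 12.5%. In Han BB against Han ++ it was 0, and 1 in limma voom and, without W7, 1 as the upper end of a range from 0. The family median in Han BB over Dorset, -0.09 on the log2 scale, was -0.0210 in limma voom and -0.0240 without a filter, -0.19 without W4 and D6, and from -0.28 (without W2) to 0.0539 (without D4). In Han ++ over Dorset it was -0.27 without W4 and D6, -0.22 with the term, and from -0.26 (without D6) to -0.0037 (without D4). In Han BB over Han ++ it ranged from 0.00700 (without W7) to 0.16 (without W1). Over all tested genes, calls in the 3 comparisons went from 0, 1 and 0 to 38, 65 and 2 in DESeq2, 0, 0 and 2 in limma voom, 2, 11 and 0 without a filter, 2, 22 and 0 without W4 and D6, 1, 78 and 0 with the term, and 1, 5 and 0 without W4. The cause was not tested. Among the members named by the rules given above, no fold change with an unadjusted p under 0.05 turned its direction. ABCC12, named after its values were seen, was not followed in this way. Its log2 fold change over Dorset was -0.05 in Han BB and -0.13 in Han ++ with all libraries. Without D4 it turned upward, as D5 and D6 had 0 reads. The labels pair no ewes, so no blocked fit was made. Low counts limited ABCB11, ABCC11 and ABCG5, whose standard errors were 1.26 to 1.82 on the log2 scale, apart from 1 value. That value, 3.06 for ABCG5 in Han ++ over Dorset, was derived from a log2 fold change of 0.000585 and is unreliable.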

Other observations

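Among the 42 ABC rows with reads, D4 was the highest ewe for 10 and W4 for 11, while W6 was the highest for 1. The same count was not made over all genes, so it is not known whether these numbers are particular to the family. Among the D4 peaks, ABCA4, ABCA12, ABCC2, ABCC6, ABCC8, ABCC11 and ABCC12 were each at 2.43 to 11.9 CPM in D4, and they were picked after their values were seen. ABCB11, ABCG5 and ABCG8 were highest in W8. D4 had 11716565 reads, the second lowest total, and its TMM factor of 0.880 was the lowest of the 9. For ABCA4 the other 8 ewes lay between 1.23 and 4.70 CPM. W8, the library with the lowest total, was among the 2 highest ewes for ABCA12, ABCC2, ABCC6 and ABCC11. The relation of depth to these levels was not tested.

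Steady and variable members were found within 1 subfamily. ABCF3 differed by 1.38-fold between its lowest and highest ewe and ABCF1 by 5.22-fold. ABCC5 differed by 1.70-fold and ABCC1 by 1.80-fold, while ABCC9 differed by 3.03-fold. ABCD4.1 and ABCD3, at 1.62-fold and 1.67-fold, were steadier than 94.8% and 93.5% of tested genes by this measure.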
